A study of Homo sapiens with 6 samples.

Results

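The regions described here are stretches of open chromatin that were called in all 3 control libraries and in none of the 3 libraries from cells with silenced DLGAP1-AS2. Members were chosen by merging the peaks of all 6 lists on chromosomes 1 to 22 and X wherever they shared at least 1 bp, and keeping each merged region with a peak in control replicates 1, 2 and 3 and none in silenced replicates 1, 2 or 3. The rule found 1015 regions among 507086 merged regions. Chromatin was measured by ATAC-seq, in which a transposase inserts sequencing adapters into open DNA, in NCI-H1703, an established line labelled as lung squamous cell carcinoma (LUSC). The silenced group is labelled with silenced DLGAP1-AS2, a long non-coding RNA, and the other group as control, and the labels used here give no time point and do not state how control cells were treated. All 6 libraries come from this 1 line, and nothing in the labels states that replicates were separate cultures, so p-values below measure the spread between these libraries, which may be technical.

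Open chromatin marks promoters, where transcription starts, and distal elements such as enhancers, which bind transcription factors and often lie inside introns of genes or between genes. A peak is called where fragments pile up above the local background, so whether a weak site enters a list depends on its openness and on how many fragments a library holds. The title of the series links DLGAP1-AS2 to phosphatidic acid synthesis and to YAP, a co-activator that the Hippo kinase cascade restrains and that acts through TEAD factors. A missing peak is a missing call, not a measurement of closed chromatin.

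Promoter sequence shows what kind of start sites the members cover. Of 34789 RefSeq promoter windows (GRCh38.p14, 250 bases before to 50 bases after a start site), 54 overlapped 49 members, and 43 were covered by at least 150 bp. The stretches below are the 250 bases upstream of 5 such start sites, taken in order of the weakest FDR (the authors' adjusted p-value) in any control library, among the 9 members whose stretch lies outside every annotated gene. Capitals mark matches to GGGCGG on either strand, the GC box that SP-family factors bind. The letters of 8 other motifs searched were not found in these 5 stretches.
SEMA7A: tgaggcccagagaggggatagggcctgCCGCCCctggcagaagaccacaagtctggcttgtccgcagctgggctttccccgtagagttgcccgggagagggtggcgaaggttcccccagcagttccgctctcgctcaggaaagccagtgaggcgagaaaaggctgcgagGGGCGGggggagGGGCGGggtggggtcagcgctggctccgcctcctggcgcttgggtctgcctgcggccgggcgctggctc
TESK1: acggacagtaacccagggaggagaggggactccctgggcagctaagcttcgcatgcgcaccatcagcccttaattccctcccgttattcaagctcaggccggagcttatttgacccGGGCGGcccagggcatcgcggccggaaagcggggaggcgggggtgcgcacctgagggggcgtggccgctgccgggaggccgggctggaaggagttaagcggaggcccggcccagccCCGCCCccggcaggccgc
DENND11: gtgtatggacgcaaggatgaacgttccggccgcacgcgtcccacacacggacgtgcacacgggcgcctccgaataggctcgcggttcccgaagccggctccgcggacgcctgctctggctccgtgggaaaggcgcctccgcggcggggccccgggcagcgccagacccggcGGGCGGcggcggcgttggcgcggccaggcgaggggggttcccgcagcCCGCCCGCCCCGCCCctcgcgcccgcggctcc
LOC124905120: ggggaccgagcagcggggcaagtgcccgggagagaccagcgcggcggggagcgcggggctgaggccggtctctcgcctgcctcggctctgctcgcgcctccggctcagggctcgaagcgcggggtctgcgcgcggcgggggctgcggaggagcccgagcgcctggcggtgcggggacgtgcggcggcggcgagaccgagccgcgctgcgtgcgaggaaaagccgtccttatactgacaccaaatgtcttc
TNFRSF1B: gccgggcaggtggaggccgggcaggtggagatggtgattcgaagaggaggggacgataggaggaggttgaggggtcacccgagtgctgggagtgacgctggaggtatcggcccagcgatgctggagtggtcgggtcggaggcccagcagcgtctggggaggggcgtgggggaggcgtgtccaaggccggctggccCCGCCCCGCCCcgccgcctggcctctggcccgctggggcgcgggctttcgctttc
The first is chr15:74433959-74434208 on the minus strand, the second chr9:35605012-35605261 on the plus strand and the third chr7:141702167-141702416 on the minus strand. The fourth is chr22:39557515-39557764 on the minus strand and the fifth chr1:12166741-12166990 on the plus strand. Members covered 139, 250, 250, 126 and 200 of the 250 bases in the order shown. Their G and C content was 70.0%, 70.4%, 78.0%, 74.8% and 72.4%, and they held 17, 22, 42, 37 and 22 CpG dinucleotides. The GC box occurred 3 times at SEMA7A, 2 times at TESK1, 4 times at DENND11, 0 times at the lncRNA start site and 2 times at TNFRSF1B.

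Over the 43 windows covered by at least 150 bp, the median G and C content was 69.7% and the median number of CpG dinucleotides 28, and 26 windows belonged to protein-coding genes and 17 to lncRNA genes. The 358 windows covered to the same extent by regions of the other 19 patterns of 3 libraries had medians of 60.3% and 11. The 13516 windows covered by regions called in all 6 libraries had medians of 66.0% and 27, and all 34789 windows had 58.7% and 14. The lower quartile of CpG number was 7.5 for members, 4 for the other patterns and 20 for regions called in all 6 libraries, and 67.4%, 45.5% and 88.4% of windows held at least 15. By the lower quartile and the share with at least 15, the member windows lay between both sets, whereas both of their medians were above those of both sets. The 19 patterns were pooled, and most of them lack control replicate 2. The letters of 9 motifs were counted on both strands. GGGCGG was present in 31 member windows (72.1%), against 46.1% for the other patterns, 73.4% for regions called in all 6 libraries and 44.9% of all windows. GGAATG, the core letters bound by TEAD factors, was present in 8 member windows (18.6%), against 14.2%, 10.2% and 14.1% in those sets. TGANTCA, the letters of the AP-1 site, was present in 4 (9.30%), against 12.6%, 4.18% and 7.69%. CCAAT was in 14 windows (32.6% against 34.6% of all windows), TATAAA in 2 (4.65% against 11.6%), CACGTG in 2 (4.65% against 7.24%), CCGGAAGT in 1 (2.33% against 4.12%), the NRF1 motif in 1 (2.33% against 1.23%) and TGACGTCA in 0 (against 1.84%). Windows of neighbouring start sites overlap, so they are not independent, and these shares were not tested.

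The libraries differed in number of peaks and in background, and their read depth is unknown. Peaks per library ran from 121337 in silenced replicate 3 to 167849 in silenced replicate 2, and from 91282 in control replicate 2 to 170747 in control replicate 1. The lowest local background in a list, computed from the deposited height (the pileup of fragments) and fold enrichment, stands in for depth. For replicates 1, 2 and 3 it was 0.369, 0.402 and 0.237 among silenced libraries, and 0.380, 0.464 and 0.372 among controls, so the lowest value lay in the silenced and the highest in the control group. The lowest height called was 3 in control replicate 2 and 2 in the other libraries. Markers of the labelled tissue were checked by peaks within 1 kb of a gene end: of 7 squamous genes, SOX2 had one in all 6 libraries and KRT6A in none, TP63 in 4 and the others in 1 or 2. Of 3 lung adenocarcinoma or alveolar genes, NKX2-1 and NAPSA had one in all 6. The squamous keratins thus lacked a call in most libraries, and the data do not settle the tissue label. Of the leukocyte and endothelial genes, 0 had a peak in all 6 libraries, and the counts were 1 of 3 for the neuroendocrine (NEUROD1) and 1 of 3 for the mesenchymal genes (VIM).

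Members were somewhat taller than the typical peak of control replicates 1 and 3 and lower than that of control replicate 2. The median height of all peaks was 4, 8 and 4 in control replicates 1, 2 and 3. With a library's tallest peak taken at each member, the median place from the top of the list by height was 35.6%, 63.7% and 37.0%. The calls of all 6 libraries chose the members, so heights, lengths and FDR values are a description without a test. Height ranged from 2 to 24 with a median of 5 in control replicate 1, from 3 to 27 with a median of 6 in control replicate 2 and from 2 to 24 with a median of 5 in control replicate 3. The quartiles of the members lay at 3 and 7 in replicates 1 and 3 and at 5 and 8 in replicate 2. Control replicate 2, with the highest background, was alone the tallest at 505 members, replicate 1 at 136 and replicate 3 at 150, and 224 members were tied. Divided by each library's lowest background, the median heights were 13.2, 12.9 and 13.4, close to each other. Median fold enrichment over local background was 3.52, 3.81 and 3.57 in the same order.

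**Figure D1:**
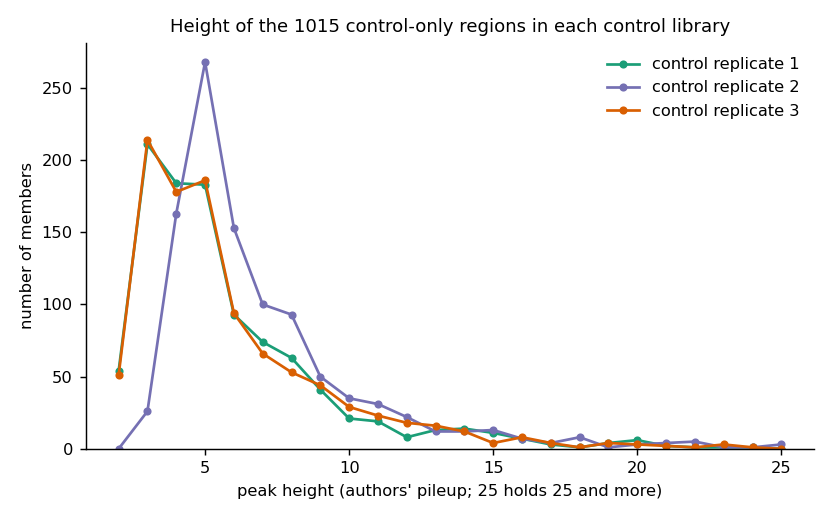
Number of members (vertical axis) at each peak height (horizontal axis, the authors' pileup) in control replicates 1, 2 and 3, 1 line per library, with 25 and more pooled in the last point. Replicates 1 and 3 nearly coincide and start at a height of 2, whereas replicate 2 starts at 3 and peaks at a greater height.

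An FDR under 0.05 was reached at 648 members in control replicate 1, 900 in control replicate 2 and 669 in control replicate 3, or 63.8%, 88.7% and 65.9% of them. Of all peaks in these libraries, 46.5%, 88.1% and 48.2% did so. In all 3 control libraries it was reached at 433 members (42.7%), against 17.3% to 43.8% in the other patterns of 3 libraries and 28.8% of all regions, each over the libraries that called it. An FDR no higher than 1e-05 in every control library was found at 3 members, those in SEMA7A, IGF2BP3 and GRIA1. All 3 heights were at least 4 at 613 members, at least 8 at 145 and at least 10 at 80. The merged regions ranged from 205 to 1031 bp with a median of 364 bp and together covered 401.6 kb. The median length of the peaks themselves was 233, 222 and 226 bp. Each control library gave 1 peak to 997 members, and 18 members held more than 3 peaks. The tallest peaks of the 3 libraries shared at least 1 base at 912 members and at least 100 bp at 725 (71.4%). At the other 103 members the 3 peaks were joined in a chain with no base common to all 3, and 4 of the 5 longest members were of this kind. They included regions in CNGA3, a cyclic nucleotide-gated channel gene (981 bp), NOS1, the neuronal nitric oxide synthase gene (946 bp), and RBM28 (893 bp). The region in TANC2 (885 bp) had 96 bp common to all 3 libraries and a height of 4 in each.

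Members make up 0.2% of all merged regions and 5.5% of the 18459 regions called in exactly 3 libraries, shares that the rule itself fixes. The 20 patterns of 3 libraries out of 6 held from 415 to 1961 regions, and the members were 5th largest of the 20. The other 19 patterns give a scale for what the members share. Median length was 364 bp for the members and 332 to 387 bp for the others. Median height was 5 for the members and for each of the 9 other patterns that hold control replicate 2, and 3 or 4 for the rest. A height of 8 or more (a limit chosen after the values were seen) in the median library was found at 221 members (21.8%, 95% Wilson interval 19.3% to 24.4%), against 4.39% to 19.9% in the other patterns. The 5 patterns most like the members, with control replicate 2 and without silenced replicate 3, had 18.1% to 19.9%. The intervals cover counting error only and overlap with those of these 5 patterns. The part of depth in these shares was not tested.

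Most members lay inside genes, as did most regions of the other patterns. For 642 members (63.3%) the midpoint was within an annotated protein-coding or lncRNA gene. The other patterns ranged from 57.6% to 66.1%, and all regions together had 60.0%. Protein-coding genes held 532 members (52.4%) and 110 (10.8%) lay in lncRNA genes alone, while 373 (36.7%) lay in no gene. The RefSeq table used here has no exons, so exons, introns and UTRs were not told apart. The longest gene around a member had a median span of 92.2 kb, against 118.4 kb for regions of the other patterns.

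Near gene ends the members held the first place among the 20 patterns, by a small margin. A midpoint within 1 kb of a gene end was found for 128 members (12.6%, 95% Wilson interval 10.7% to 14.8%), of which 85 were near an end of a protein-coding gene. The other patterns had 6.20% to 12.3% and the 5 most similar 9.81% to 12.3%. When 1 control library was left out of the rule, which then asks for 2 control calls, the share was 10.2%, 7.05% and 10.1% on leaving out control replicate 1, 2 or 3, respectively. The order of the 20 patterns was not recomputed in those settings. For comparison, the share was 7.54% for all regions and 34.3% for the 37261 regions called in all 6 libraries. Within 1 kb of an annotated start site lay 94 of 979 members (9.60%; chromosome 8 is not in the start-site table), 49 upstream and 45 downstream of it, against 3.03% to 8.16% in the other patterns. The members' interval for this share, 7.91% to 11.6%, included the highest of the other patterns. The median distance to a start site was 23.2 kb for members, 29.3 kb for the other patterns and 11.9 kb for regions called in all 6 libraries. Members near a start site were taller, with a median height of 7.5 and 47 of 94 (50.0%) at 8 or more, than the 885 others, of which 170 (19.2%) reached 8.

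**Figure D2:**
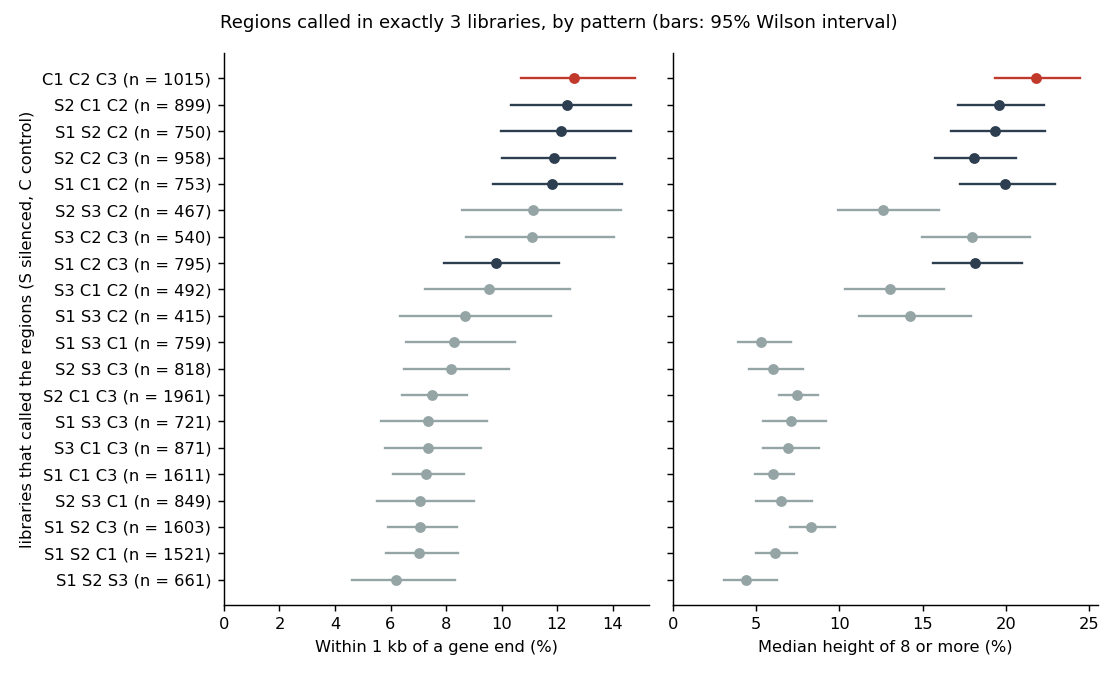
Share of regions within 1 kb of a gene end (left, percent) and share with a median height of at least 8 (right, percent) for the 20 patterns of exactly 3 libraries, with 95% Wilson intervals. Members are red, the 5 patterns with control replicate 2 and without silenced replicate 3 are dark and the others grey, and the red points (12.6% and 21.8%) come first in both panels with intervals that overlap those of the dark ones.

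Among members at gene ends, the region at SEMA7A, which encodes a membrane-anchored semaphorin, had the lowest weakest-library FDR of all. It covered chromosome 15, 74433616 to 74434097 (482 bp), 102 bp from the start site. Its height was 14, 18 and 16 in control replicates 1, 2 and 3, its fold enrichment 5.81, 6.88 and 6.85, and its weakest FDR 7.98e-08. The nearest silenced peak lay 4.64 kb away, so this start site carried no call in any silenced library. The member at TESK1, a kinase gene whose product acts on cofilin and the actin skeleton, covered chromosome 9, 35604986 to 35605354. Its height was 23, 22 and 24, and its fold enrichment 4.12, 3.19 and 3.93. A peak of height 113 in silenced replicate 2 lay 187 bp away, and a region called in all 6 libraries 109 bp away. This tall member therefore lay beside a much taller site that every library shared.

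DENND11, which encodes a DENN-domain protein, had a member 118 bp from its start site with heights of 7, 7 and 8, and the nearest silenced peak (height 5) 221 bp away. The lncRNA LOC124905120 had heights of 7, 9 and 12. TNFRSF1B, which encodes a receptor for tumour necrosis factor, had 6, 9 and 12, and its member overlapped the hairpin of MIR7846. At these 2 sites control replicate 3 was the highest and control replicate 1 the lowest, and the nearest silenced peaks, with heights of 3 and 6, were 1424 and 1109 bp away.

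Other members at ends of protein-coding genes lay at differing distances from regions called in all 6 libraries, from 0.096 kb at CAMTA1-DT to 33.8 kb at EHD3. LENG9 had a member 849 bp from its end with heights of 21, 27 and 23, a shared region 0.397 kb away and a silenced peak of height 42 at 490 bp. CTXN1, which encodes a small brain-enriched membrane protein, shared its member with the start site of the lncRNA LOC124904629, and heights there were 19, 21 and 23. The member inside CAMTA1-DT, a lncRNA gene next to CAMTA1, had heights of 18, 19 and 20 and lay 96 bp from a silenced peak of height 106. TERF2IP, which encodes the telomere protein RAP1, had 14, 13 and 13, with a silenced peak of height 56 at 181 bp. KIF26B, a kinesin gene, had 14, 14 and 16, with a silenced peak of height 51 at 723 bp. In these 5 members the heights differed between control libraries by at most 6, and the nearest silenced peak was within 1 kb in each. FRAT2, whose product binds the kinase GSK3 in Wnt signalling, had 13, 17 and 14, and the nearest silenced peak, of height 13, was 229 bp away. EHD3, an endocytic trafficking gene, had 7, 9 and 11 with no silenced peak within 3.56 kb.

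Farther inside genes, the strongest members lay in IGF2BP3, GRIA1 and ACACB. The member in IGF2BP3, which encodes an RNA-binding protein of fetal tissues and many tumours, had heights of 13, 23 and 13 (chromosome 7, 23431680 to 23431984). It was 38.7 kb from the gene's start, and a silenced peak of height 40 lay 808 bp away. GRIA1, an AMPA-type glutamate receptor subunit gene, had heights of 8, 10 and 10 (chromosome 5, 153623182 to 153623504) and a silenced peak of height 4 at 442 bp. ACACB, the gene of an acetyl-CoA carboxylase that makes malonyl-CoA at mitochondria, had 8 in each control library (chromosome 12, 109134127 to 109134655), and the nearest silenced peak, of height 4, was 2.43 kb away. Of these 3, IGF2BP3 was the one with 1 control library far above the others.

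CBX7, a Polycomb-group gene, had a member 3.65 kb from its start with heights of 15, 17 and 17 and the nearest silenced peak 1.68 kb away. CHURC1-FNTB, a read-through gene that includes the farnesyltransferase subunit FNTB, had 9, 11 and 11. NEBL, which encodes the actin-binding protein nebulette, had 7, 8 and 8 with no silenced peak within 3.84 kb. A member in no gene, 11.3 kb from the end of the lipoxygenase gene ALOX15B, had 11, 16 and 12. TRAF4, which encodes an adaptor of tumour necrosis factor receptor signalling, had one of the tallest members, with heights of 22, 26 and 23. MBD6, a gene of the methyl-CpG-binding domain family, had 20, 22 and 21 over a region of 805 bp inside the gene, 259 bp from an annotated start site, with a shared region 1.18 kb away. In each of these 6 members every control library reached at least 7.

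**Figure D3:**
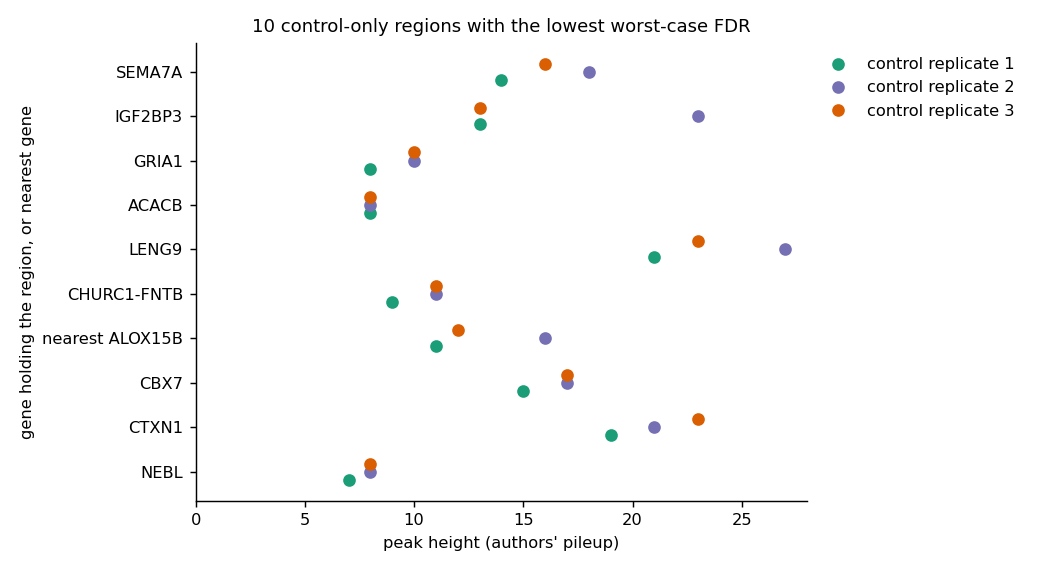
Peak height (horizontal axis, the authors' pileup) in control replicates 1, 2 and 3 of the 10 members with the lowest weakest-library FDR, 1 row per region, named by the gene that holds it or the nearest gene. Heights run from 7 at NEBL to 27 at LENG9, and the 3 points of a row lie close together except at IGF2BP3, where replicate 2 is at 23 and the others at 13.

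Tall members tended to lie near other open chromatin. Of the 221 members with a median height of 8 or more, 51 (23.1%) were within 1 kb of a region called in all 6 libraries and 162 (73.3%) within 10 kb. Of the 794 lower members, 18 (2.27%) and 213 (26.8%) were. The local background under the tall members had medians of 1.62, 2 and 1.62 in control replicates 1, 2 and 3, and that under the lower ones 0.430, 0.600 and 0.420. The median fold enrichment was 3.87, 3.82 and 3.99 for the tall and 3.41, 3.81 and 3.47 for the lower members. Background is computed from height and fold enrichment, so with similar enrichment a split by height itself gives the tall members a larger background. The same split was not made for the other patterns, so it is unknown whether these values are particular to the members. Among all members, 69 (6.80%) were within 1 kb of such a shared region, against 1.80% to 8.50% in the other patterns, and 375 (36.9%) within 10 kb, against 20.1% to 38.6%.

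Silenced libraries often had a peak close by. The distance from a member to the nearest silenced peak had a median of 1759 bp over the 3 libraries together. It was at most 100 bp at 46 members, at most 500 bp at 210 (20.7%) and at most 1 kb at 339 (33.4%), and over 5 kb at 174 (17.1%). For single libraries the median was 4052 bp in silenced replicate 1, 3674 bp in silenced replicate 2 and 4950 bp in silenced replicate 3, which has the shortest list of the 3. Silenced peaks within 500 bp were found at 116, 131 and 80 members.

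**Figure D4:**
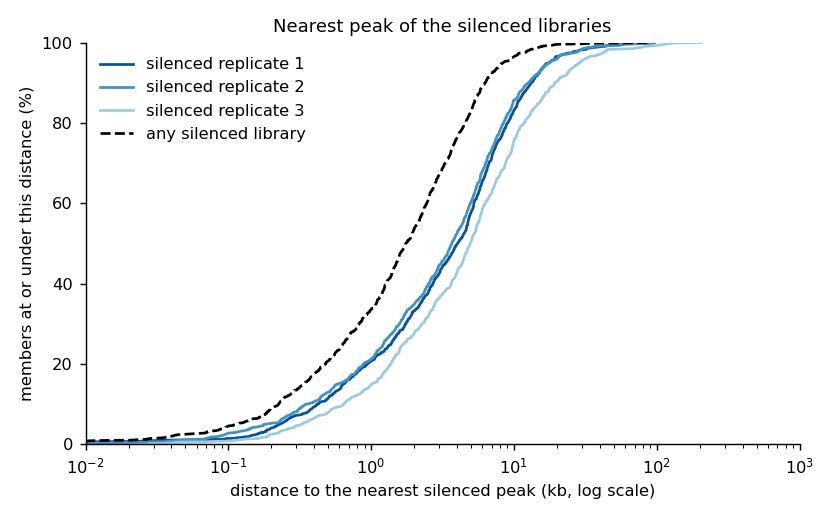
Cumulative share of the 1015 members (vertical axis, percent) by distance to the nearest peak (horizontal axis, kb, log scale) of silenced replicates 1, 2 and 3 and of any silenced library. The line for any silenced library passes 33.4% at 1 kb, and the line of silenced replicate 3 lies to the right of the other silenced replicates.

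Genes of the Hippo cascade and of phosphatidic acid metabolism were looked up in lists of genes, each gene extended by 1 kb. Of 25 Hippo and TEAD genes, WWTR1 and WWC1 held 3 members, out of 41 regions called in exactly 3 libraries there, and the other patterns had 0 to 4 regions each. WWTR1 encodes TAZ, the paralogue of YAP. Its 2 members were at chromosome 3, 149527855 to 149528110, with heights of 11, 13 and 11, and 149534850 to 149535167, with heights of 12, 13 and 12. Both lay inside the gene, 10.7 and 17.8 kb from its nearer end, and the nearest silenced peaks were 2565 and 1504 bp away with heights of 11 and 10. WWC1, which encodes KIBRA, an upstream activator of the Hippo kinases, had a member with heights of 8, 7 and 11 (chromosome 5, 168422480 to 168422765), 2.27 kb from the nearest silenced peak. The weakest FDR of these 3 members was 0.000141, 0.00253 and 0.00102.

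Of 27 genes of phosphatidic acid metabolism, AGPAT4 held 1 member. AGPAT4 encodes an acyltransferase that makes phosphatidic acid from lysophosphatidic acid, and heights there were 7, 5 and 3, with an FDR of 0.105 in control replicate 3. In all, 15 regions called in exactly 3 libraries lay in this list. Of 22 YAP targets, ASAP1 held 1 member with heights of 4, 7 and 5, out of 22 regions called in exactly 3 libraries. Its FDR was 0.111 in control replicate 1. Among receptor kinases, PDGFRB held 1 member with heights of 9, 11 and 13, and among squamous genes PKP1, which encodes the desmosome protein plakophilin 1, held 1 with a height of 5 in each control library. The AP-1, apoptosis and DNA repair lists and the lists of adenocarcinoma, neuroendocrine, leukocyte, endothelial and mesenchymal genes held 0 members, and in the other patterns those lists held 0 to 2 regions each. None of these counts lay outside the range of the other 19 patterns.

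Few genes held more than 1 member. The 678 genes with a member inside their span included 23 with at least 2 and 1 with 3, the collagen gene COL22A1. Heights of its members were 10, 11 and 12 for the first, 9, 10 and 11 for the second and 2, 5 and 5 for the third. Besides WWTR1, described above, the genes with 2 members and the lowest weakest-library FDR were ACACB, the antisense lncRNA gene SLC38A4-AS1 and the myosin gene MYO18B. In each of these 3 genes 1 member was stronger than the other: ACACB had 8, 8 and 8 at one and 2, 5 and 3 at the other, SLC38A4-AS1 had 11, 14 and 11 against 3, 5 and 3, and MYO18B had 9, 9 and 11 against 3, 4 and 4. Hairpins of 3 microRNA genes out of 1562 overlapped a member. Besides MIR7846, they were MIR4785 inside RBMS1, with heights of 9, 12 and 5, and MIR584 inside SH3TC2, with heights of 6, 5 and 4. Hairpins under regions of the other patterns were not counted, so the 3 have no scale.

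Members were found on all 23 chromosomes. As a share of the regions called in exactly 3 libraries, they ran from 2.96% on the X chromosome (15 of 506, 95% Wilson interval 1.80% to 4.83%) to 7.63% on chromosome 17 (63 of 826, 6.01% to 9.64%), around 5.5% for all chromosomes. The interval of each of these 2 chromosomes left out 5.5%, as did those of chromosomes 1 (6.61%, 5.51% to 7.91%) and 6 (4.17%, 3.22% to 5.39%), and 23 intervals were looked at. Chromosome 1 held the most members (109) and chromosome 21 the fewest (7). Neighbouring members on a chromosome were a median of 1356 kb apart. There were 7 neighbouring pairs within 10 kb and 59 within 100 kb, and the closest were 414 bp apart between midpoints. The spacing of the other patterns was not computed, so whether members cluster was not tested.

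**Figure D5:**
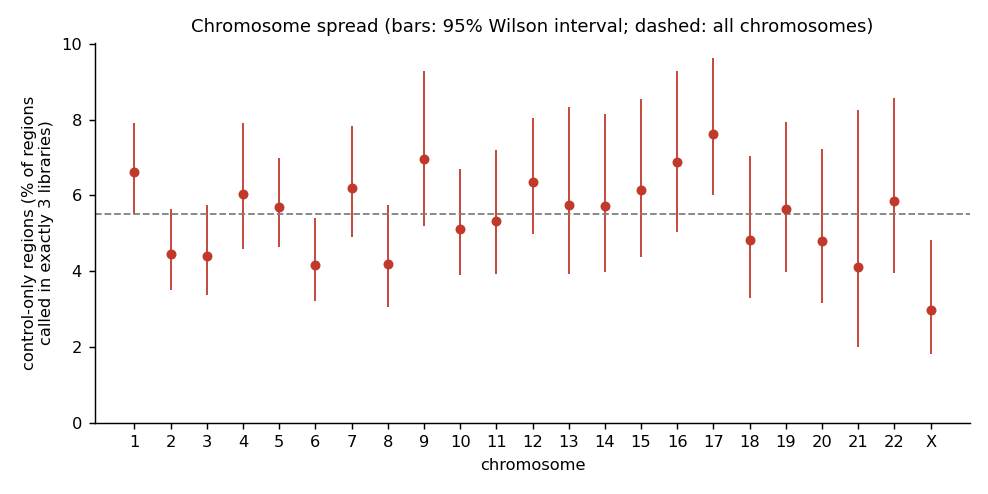
Members as a percent of the regions called in exactly 3 libraries (vertical axis) on each chromosome (horizontal axis), with 95% Wilson intervals and the value for all chromosomes dashed. Chromosome 17 (7.63%) is highest and the X chromosome (2.96%) lowest.

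Peaks outside the members were compared between groups. These peaks are not independent of the rule: it keeps every silenced peak outside the members, while the control peaks in members were not counted. Those member peaks stayed in each control library's total and in its ranking by height. The first comparison asked whether silenced libraries also had fewer peaks around the members. The share of a library's peaks that lay within 10 kb of a member but in none was, in order of replicate, 1.03%, 1.05% and 1.19% for silenced cells and 0.907%, 1.32% and 0.963% for controls. The silenced values lay within the range of the control values. Control replicate 2 and silenced replicate 3, the libraries with the shortest lists, had the largest shares. Silenced libraries averaged 1.09% ± 0.0850 (SD, n = 3) and controls 1.06% ± 0.223 (SD, n = 3). This difference was smaller than the spread of the libraries, with p = 0.9 by an exact two-sided permutation and 0.9 after adjustment for 2 tests. Its direction turned when silenced replicate 3, control replicate 1 or control replicate 3 was left out, to -0.0465, -0.0960 and -0.0724 percentage points, and without control replicate 2 it was 0.660 with the exact permutation p = 0.1.

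The second comparison asked whether peaks at the ends of genes that hold a member were placed lower in silenced lists. For 367 of the 678 genes with a peak outside the members within 1 kb of an end in all 6 libraries, the tallest such peak was placed in its list by height. Genes lacking such a peak in any library were left out, so a lost call at a gene end could not show here. The median place from the top was, in order of replicate, 5.22%, 5.02% and 9.76% for silenced cells and 4.82%, 9.33% and 4.72% for controls. The group ranges overlapped, and the 2 libraries with the shortest lists, silenced replicate 3 and control replicate 2, had the largest values. Silenced libraries averaged 6.67% ± 2.68 (SD, n = 3) and controls 6.29% ± 2.63 (SD, n = 3), with an exact permutation p = 0.5 and 0.9 after adjustment. The difference of 0.376 percentage points also turned, to -1.46, -0.434 and -0.324, when the same 3 libraries were left out in that order, and leaving out control replicate 2 gave 1.31. The smallest p that 3 against 3 libraries allow is 0.1, so a p-value that misses the threshold does not show that the groups were alike.

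The border of the rule was narrow. Among the members with the highest weakest-library FDR, many of them tied at the same value, were one in no gene near TBC1D24, with heights of 4, 3 and 6, another in no gene near ZFX, with 2, 4 and 5, and one in RAPGEF1, with 2, 4 and 3, and their weakest FDR was 0.570, 0.541 and 0.541. Just outside lay regions called in 3 control libraries and 1 silenced library. The weakest silenced peaks among them were on chromosome 6 in no gene, with a p-value of 0.00987 and a height of 3 in silenced replicate 2 against 5, 4 and 4 in the controls, and at MSLN, with a p-value of 0.00942 and a height of 4 in silenced replicate 1 against 6, 8 and 5. The third, 1 of 11 regions with the same p-value of 0.00904, was on chromosome 1 in no gene and a height of 2 in silenced replicate 1 against 6, 8 and 3. Of regions called in all 3 control libraries and 1 silenced library, 1046 had silenced replicate 1, 1329 silenced replicate 2 and 513 silenced replicate 3. Of the 48425 regions called in all 3 control libraries, the members were 2.1%.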

How the data were processed

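ATAC-seq of NCI-H1703 cells was deposited as 1 peak list per library, 3 silenced and 3 control. The submitters' processing notes name Trimmomatic 0.36, Bowtie2 2.2.6, Picard 2.8.2, MACS2 2.1.1, bedtools 2.25.0 and GRCh38, without roles or settings. A shift of reads to the transposase cut and the removal of duplicates are not given in the sources used here, and read depth is unknown. Per the file headers, the authors give each peak a fold enrichment (ratio), a p-value and an FDR (adjusted p-value), and a pileup signal that is not scaled to depth.

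Lists were merged in Python 3.11.15 with numpy 2.4.6 and pandas 2.3.3, and the merging was tested on simulated data. Genes came from RefSeq GRCh38.p14 (20052 protein-coding, 18330 lncRNA) and promoter windows and hairpins from RefSeq tables of the same build. Local background is (height + 1) / fold enrichment − 1. Exact permutation tests used library values, with Benjamini-Hochberg adjustment. Members, gene lists and the rule for named regions were chosen with earlier results of these data known. Named were the 10 members with the lowest weakest-library FDR, the 5 tallest, the 5 longest (1 of them is not reported here), the 10 best within 1 kb of a coding gene end, members in listed genes, the 5 genes with most members (ties by FDR), the border cases and 5 promoters. Promoter stretches inside a gene span were not printed, a limit added after the data were seen. The microRNA hairpins and the 9 motifs were chosen after seeing the data.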

Additional observations from a re-analysis of the deposited data

How the results depend on the processing

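The number and the kind of members depend on where calls are cut. With an FDR of at most 1e-05 in every library, 508 regions qualified, with 16.3% near a gene end, a median length of 390.5 bp and a median height of 11, and 3 of them overlapped a member of the rule as given. With that limit on control peaks alone and all silenced peaks kept, 3 regions remained, with 100% inside genes, 33.3% near a gene end, and medians of 323 bp and a height of 13. Median length was 356 bp at an FDR under 0.05, 356 bp with lists of equal size and 634 bp with windows around midpoints. Median height was 6 at an FDR under 0.05, 6 at a height of at least 4 and 6 with lists of equal size, settings that overlapped 42.7%, 60.4% and 56.8% of the members and so describe sets that differ from them in part. No silenced peak within 1 kb left 676 regions, with 8.88% near a gene end, and a limit of 2.5 kb put 21.5% near one. Leaving out 1 library at a time, which asks for fewer calls, gave 1527 to 6728 regions, 7.05% to 13.3% near a gene end, 61.0% to 64.4% inside genes, lengths of 310 to 369.5 bp and heights of 3.5 to 5.

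The difference in flanking peaks was -0.00519 at an FDR under 0.05, -0.0139 with lists of equal size, -0.00775 with no silenced peak within 1 kb, -0.0016 with the 3 regions and -0.218 with flanks of 50 kb, and -0.0960 to 0.660 without 1 library. In the other direction it was 0.127 at a height of at least 4, with an exact permutation p = 0.1, the smallest possible. The difference at gene ends was -9.77 with the 3 regions, a value that rests on 1 gene. This difference was -0.257 when peaks were ranked by p-value and -1.46 to 1.31 without 1 library. It was larger than the 0.376 of the rule as given at an FDR of at most 1e-05 (4.15), a height of at least 4 (3.97), lists of equal size (1.79) and an FDR under 0.05 (1.60). With the replicate block, the paired values were 0.025 and 0.376, with exact sign-flip p-values of 1 and 0.75, where 0.25 is the smallest possible; the labels do not say that equal numbers mark a shared culture. For those settings that reversed or moved a value, the cause was not tested. Depth in reads is unknown, so a missing silenced call that reflects fewer fragments and one that reflects less open chromatin cannot be told apart.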
